A study of Mus musculus with 6 samples.

Results

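The genes followed here encode the insulin-like growth factors Igf1 and Igf2, their signalling receptor Igf1r, and the binding proteins Igfbp2, Igfbp3, Igfbp4, Igfbp5 and Igfbp6. They were chosen by name, and a gene counted as measured when a probe set of the array was annotated with its symbol alone. Of the 8 listed genes 7 had such a probe set, out of 8251 genes on the array. Igfbp5 had none: the 1 probe set that lists it also lists Tmem119, a gene of microglia, so its signal was assigned to neither gene. Where a gene had several probe sets, the one with the highest mean intensity stood for it.

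The study profiled messenger RNA of mouse spinal cord on 6 Affymetrix arrays, 1 for each of 3 genotypes at 75 and at 110 days of age. Each array held RNA pooled from 4 spinal cords and was hybridised and scanned once, per the labels. Nontransgenic mice were B6SJL animals. Mice called WT-SOD1 had a transgene for wild-type SOD1, the copper-zinc superoxide dismutase, and their strain was labelled B6SJL-WT-SOD1 at 75 days and not given at 110 days. G93A-SOD1 mice had a transgene with the G93A substitution, known from familial amyotrophic lateral sclerosis (ALS), and their strain was labelled B6SJL-G93A-SOD1 at 75 days and B6SJL-G93A-SOD1H at 110 days. No group received a treatment. The promoter that drives the transgenes and the sex of the mice are not given in the sources used here. Per the series' design text, G93A-SOD1 mice had no symptoms at 75 days and had tremor and partial paralysis at 110 days, while WT-SOD1 mice stayed free of disease. The nontransgenic and the WT-SOD1 array of an age are therefore called its disease-free arrays. No genotype and age had a second array, so in the main model the spread of a gene comes from the nontransgenic and WT-SOD1 arrays of each age, moderated toward that of all probe sets. A single G93A-SOD1 array is taken to have the same spread.

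Insulin-like growth factors are secreted peptides that bind the tyrosine kinase receptor encoded by Igf1r, which signals through adaptor proteins to the PI3K-Akt and the Ras-MAP kinase pathways. In the fluid between cells most of the factors are held by binding proteins, which lengthen their life, carry them and limit their access to the receptor, and which proteases cut to release them. In the nervous system IGF-1 is known as a survival factor for motor neurons and is made by neurons, glia and microglia, whereas IGF-2 in the adult comes largely from meninges and choroid plexus.

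Median intensity lay between 77.7 and 80.9 on the 6 arrays, and 6737 of 12422 probe sets were tested because their intensity was over 79.7, the median of all values, on 1 array or more. All 7 genes passed this filter on every array, the lowest value being 81.5. Spinal cord identity was checked with Hox genes: 7 of 8 listed were tested, and their summed intensity was 1568 to 1713 on the disease-free arrays, 1795 on the G93A-SOD1 array at 75 days and 1661 at 110 days. Genes of other tissue stood out on some arrays. Gh, the growth hormone gene of the pituitary, read 8570 on the WT-SOD1 array at 75 days and 151 to 169 on the other arrays. Gabra6, of cerebellar granule cells, read 290 and 429 on the nontransgenic array at 75 days and the WT-SOD1 array at 110 days and 21.3 to 85.5 on the rest. Those 2 arrays also had the highest bacterial spike-in controls, which averaged 1200 and 1590 against 645 to 850. The part of these tissues in the values below was not tested.

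**Figure D1:**
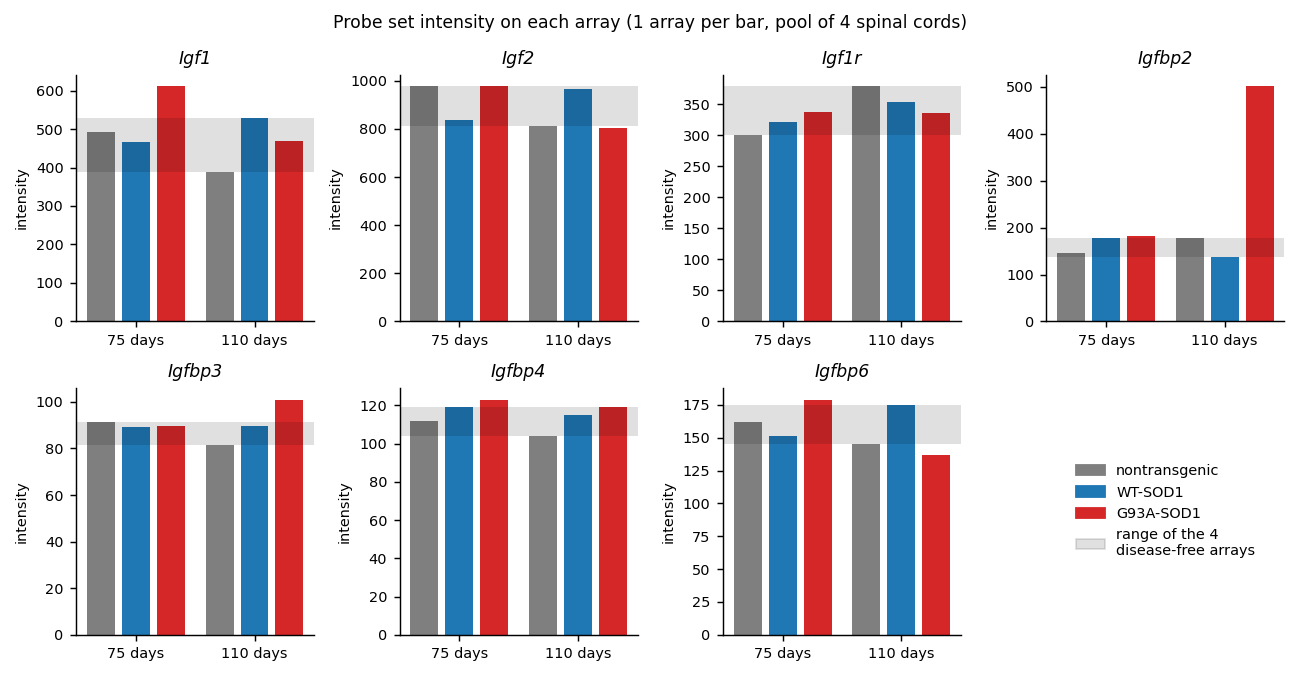
Intensity of the probe set that stands for each of the 7 genes (linear axis from 0), 1 bar per array, with genotype by colour and age below the bars. The shaded band spans the 4 disease-free arrays. Igfbp2 on the G93A-SOD1 array at 110 days, at 501 against 138 to 178, is the bar that leaves its band by most.

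Igfbp2, which encodes a binding protein abundant in cerebrospinal fluid and developing brain, was the 1 gene of the 7 that rose in G93A-SOD1 cord at 110 days. Its intensity was 146 on the nontransgenic, 178 on the WT-SOD1 and 181 on the G93A-SOD1 array at 75 days. At 110 days it was 178 on the nontransgenic, 138 on the WT-SOD1 and 501 on the G93A-SOD1 array. The 110-day G93A-SOD1 array stood alone: the other 5 arrays, the presymptomatic G93A-SOD1 array among them, spanned only 138 to 181. Against the mean of the disease-free arrays of 110 days Igfbp2 was 3.19-fold higher (log2 difference 1.68 ± 0.20 SE, 95% interval 1.20 to 2.15, limma adjusted p = 0.00852), 2.81-fold over the nontransgenic and 3.63-fold over the WT-SOD1 array. Of all tested probe sets 1.51% passed in this comparison (1.38% higher), against 1 of 7 here. The median log2 difference of the 7 genes was 0.05, and that of all tested probe sets was -0.02. The call was lost when every probe set was tested with the floor kept (limma adjusted p = 0.384). In that setting 2753 of 12422 probe sets had no spread left across all arrays, the G93A-SOD1 arrays included. With every probe set tested and no floor the call of Igfbp2 was kept (limma adjusted p = 0.00529).

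The upstream RefSeq promoter window of Igfbp2 (GRCm38.p6, chr1:72824230-72824529, plus strand, from 250 bases before to 50 after the start) is shown because this gene carries the main difference. Capitals mark the 3 matches to the GC box GGGCGG, searched on both strands.
Igfbp2: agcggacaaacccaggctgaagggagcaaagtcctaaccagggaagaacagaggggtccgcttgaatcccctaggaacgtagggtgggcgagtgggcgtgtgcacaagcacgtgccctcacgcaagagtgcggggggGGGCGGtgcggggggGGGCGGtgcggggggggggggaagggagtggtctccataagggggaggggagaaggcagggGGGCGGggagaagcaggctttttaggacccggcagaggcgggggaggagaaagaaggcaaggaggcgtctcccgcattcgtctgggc
Of 32851 windows of this length 35.7% held at least 1 GC box and 10.7% held 3 or more. Neither this window nor the one at a second annotated start held TATAAA on either strand, which 13.6% of windows did, and the second window held 0 GC boxes. These matches describe the letters of the window, and the arrays hold no measurement of what binds there. In the gene order of RefSeq the next protein-coding gene after Igfbp2 is Igfbp5.

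At 75 days Igfbp2 did not pass: its log2 difference was 0.17 ± 0.20 SE (95% interval -0.30 to 0.64, limma adjusted p = 0.818). The growth of the G93A-SOD1 difference from 75 to 110 days was 1.51 ± 0.28 SE (95% interval 0.84 to 2.17) and did not pass over all probe sets (limma adjusted p = 0.116). None of the 7 genes passed for this change, where 0.416% of probe sets did (0.386% higher, 0.0297% lower). With any 1 disease-free array left out the change of Igfbp2 stayed positive. Of the 75-day arrays, leaving out the nontransgenic one gave 1.65 and the WT-SOD1 one 1.36, and of the 110-day arrays 1.69 and 1.32. Such a fit has 1 residual degree of freedom and 1 disease-free array at that age. More probe sets passed in each of these fits than in the main fit. That Igfbp2 passed in them is therefore not read as particular to this gene. The change also passed with a term for high spike-in levels (limma adjusted p = 0.00392) and with a WT-SOD1 genotype term (adjusted p = 0.0015). With these terms 90 and 70 of all probe sets passed for the change, against 28 in the main fit. The log2 change was 1.51 with either term, as in the main fit. With the genotype term the moderation gave every probe set the same standard deviation of 0.193. Its p-values therefore do not reflect the spread of Igfbp2 itself. Within the disease-free arrays Igfbp2 was lower on both arrays with high spike-in levels, by 0.33 on the log2 scale. With a term for these levels its difference at 110 days was 1.51 (limma adjusted p = 0.000416), and on the 4 arrays with lower levels alone it was 1.49 (adjusted p = 0.000819).

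Most microglial and some astrocyte markers moved with Igfbp2 at 110 days. Of 9 tested microglial markers 8 rose at 110 days, namely Tyrobp at 5.30-fold, the complement genes C1qb at 5.13-fold, C1qc at 4.28-fold and C1qa at 4.21-fold, Cd68 at 4.95-fold, Mpeg1 at 4.60-fold, Csf1r at 2.58-fold and Aif1 at 1.99-fold. Cx3cr1 did not pass (1.15-fold, limma adjusted p = 0.899). Summed microglial marker intensity was 1584 to 1861 on the disease-free arrays, 1817 on the G93A-SOD1 array at 75 days and 7021 at 110 days, with Ptprc at the floor on every array. Of 8 tested astrocyte markers 3 rose, namely Gfap at 2.38-fold, Fabp7 at 2.75-fold and Clu at 1.79-fold. Of the others S100b, Aldoc and Gja1 had log2 differences of -0.23, -0.19 and -0.03, and Aqp4 and Slc1a2 of 1.09 and 0.25. Gfap read 2740 on the G93A-SOD1 array at 75 days against 1580 to 2210 on the disease-free arrays, without passing (limma adjusted p = 0.46). The astrocyte sum was 9583 to 10900 on the disease-free arrays, 10350 at 75 days and 14890 at 110 days in G93A-SOD1 cord. Of 7 tested markers of meninges and fibroblasts, cells known to express Igfbp2, 1 rose, Fmod at 2.03-fold. Their sum was 4617 to 5211 on the disease-free arrays, 4923 at 75 days and 4376 at 110 days in G93A-SOD1 cord. The part of these cell types in the rise of Igfbp2 was not tested. In RNA of whole cord, more cells of a type and more RNA per cell cannot be told apart.

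The genes whose pattern over the 6 arrays was most like that of Igfbp2 were sought among 199 other genes that span at least 1 log2 unit. Pros1, encoding the anticoagulant protein S, had Pearson r = 0.992, Csf1r, the growth factor receptor of microglia, 0.986, and Plat, encoding tissue plasminogen activator, 0.985. These genes were chosen for their likeness, so the correlations over 6 arrays describe it and test nothing, and all 3 were highest on the 110-day G93A-SOD1 array. Pros1 read 50.5 to 62.9 on the disease-free arrays, 57.9 on the G93A-SOD1 array at 75 days and 135 at 110 days. Csf1r went from 213 to 273 on the disease-free arrays and 264 at 75 days to 672, and Plat from 227 to 278 and 254 to 554.

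**Figure D2:**
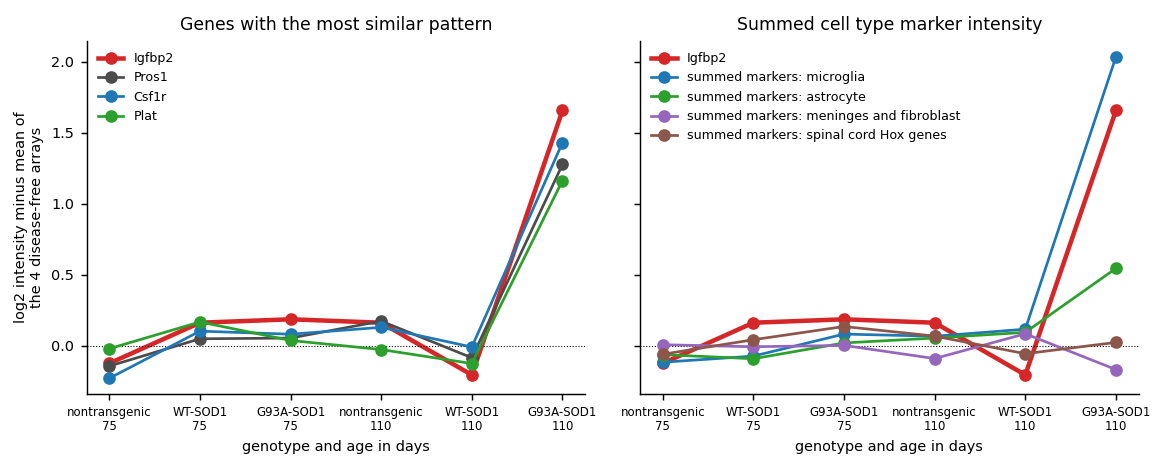
Log2 intensity on each array minus the mean of the 4 disease-free arrays, for Igfbp2 with the 3 genes of most similar pattern (left) and with the summed intensity of 4 marker lists (right). Lines join the values of one gene or sum. On the 110-day G93A-SOD1 array Igfbp2, Pros1, Csf1r, Plat and the microglial sum are high together, while the Hox sum and the meningeal sum stay near or below 0.

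The other binding proteins with a probe set of their own, Igfbp3, Igfbp4 and Igfbp6, passed in no comparison. Igfbp5 was not assessed, and the probe set that lists it with Tmem119 is described further below. Igfbp3, the main carrier of IGFs in serum, read 91.5, 89.1 and 89.8 at 75 days and 81.5, 89.6 and 101 at 110 days on the nontransgenic, WT-SOD1 and G93A-SOD1 arrays. The 110-day G93A-SOD1 array was the highest of the 6, yet its difference did not pass (log2 difference 0.25 ± 0.14 SE, 95% interval -0.08 to 0.57, limma adjusted p = 0.659). A second, dimmer probe set of Igfbp3 lay under the filter and was also highest there, at 43.8 against 27.8 to 31.6 on the other arrays, of which 3 were at or under the floor of 31.

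Igfbp4, whose product mostly holds IGFs away from the receptor, read 112, 119 and 123 at 75 days and 104, 115 and 119 at 110 days in the same order of genotypes. Both G93A-SOD1 arrays lay above all 4 disease-free arrays, the 110-day one by a margin that vanishes on rounding. The log2 difference was 0.10 ± 0.14 SE at 75 days (95% interval -0.24 to 0.43) and 0.13 ± 0.14 SE at 110 days (-0.21 to 0.46; limma adjusted p = 0.852 and 0.934). A second tested probe set of Igfbp4 read 68.4 to 81.0 on the disease-free arrays, 86.3 on the G93A-SOD1 array at 75 days and 93.3 at 110 days. Its log2 difference at 110 days was 0.44 ± 0.13 SE and did not pass either (limma adjusted p = 0.247). The third probe set of Igfbp4 was at the floor on all arrays.

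Igfbp6, which encodes a binding protein that prefers IGF-2, read 162, 151 and 179 at 75 days and 145, 175 and 137 at 110 days. The G93A-SOD1 array was thus the highest of all 6 at 75 days and the lowest of all 6 at 110 days. The log2 difference was 0.20 ± 0.16 SE at 75 days and -0.23 ± 0.16 SE at 110 days, and the change between ages was -0.42 ± 0.22 SE (95% interval -0.95 to 0.11). None of these passed (limma adjusted p = 0.708, 0.779 and 0.917).

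Of the ligands, Igf1 was highest in presymptomatic G93A-SOD1 cord. It read 491 on the nontransgenic, 465 on the WT-SOD1 and 611 on the G93A-SOD1 array at 75 days, and 388, 528 and 468 at 110 days. The 75-day G93A-SOD1 array lay above all 4 disease-free arrays, whereas the 110-day one lay between those of its age. The log2 difference was 0.35 ± 0.20 SE at 75 days (95% interval -0.11 to 0.81, limma adjusted p = 0.59) and 0.05 ± 0.20 SE at 110 days (95% interval -0.41 to 0.51, adjusted p = 1). At 110 days the interval runs from 0.751-fold to 1.42-fold, so the data are compatible with changes within it. The interval is not a limit of detection. Without the nontransgenic 110-day array the 110-day difference turned to -0.17, and without the WT-SOD1 one it was 0.27.

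The other Igf1 probe set did not follow the first. It was dim, under the filter and hence untested, and read 39.1, 33.4 and 41.0 at 75 days and 34.0, 43.5 and 64.9 at 110 days. Its highest array was the 110-day G93A-SOD1 array, with a log2 difference of 0.76 there against 0.05 for the bright probe set. The files do not show which parts of the Igf1 transcripts each probe set covers.

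Igf2, known for its imprinted expression from the paternal allele, read 977, 835 and 977 at 75 days and 814, 967 and 803 at 110 days. The G93A-SOD1 array of 75 days matched the nontransgenic one, and that of 110 days lay just below all disease-free arrays. Neither difference passed (log2 difference 0.11 ± 0.17 SE at 75 days, 95% interval -0.28 to 0.51, and -0.14 ± 0.17 SE at 110 days, interval -0.54 to 0.25, limma adjusted p = 0.853 and 0.942). The probe set that stands for Igf2 has an identifier ending in _g_at, a class that can also detect related transcripts. The dim Igf1 probe set, the second tested one of Igfbp4 and that of Gfap are of the same class. A dimmer, untested probe set of Igf2 read 44.7, 46.1 and 47.8 at 75 days and 30.5, 43.5 and 48.6 at 110 days, lowest on the nontransgenic 110-day array, as Igf1 was.

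**Figure D3:**
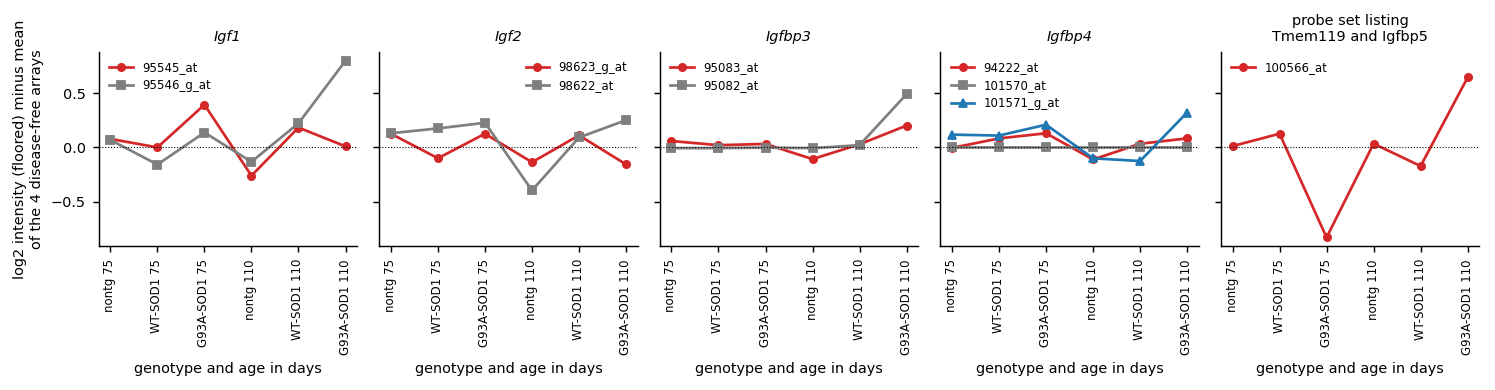
Log2 intensity, with values under 31 raised to it, minus the mean of the 4 disease-free arrays for every probe set of the 4 genes with several and for the probe set that lists Tmem119 and Igfbp5. Red marks the probe set that stands for the gene or, at right, the one with several symbols. On the 110-day G93A-SOD1 array the dim Igf1 probe set is high while the bright one is near 0, and the probe set at right is lowest at 75 days and highest at 110 days in G93A-SOD1 cord.

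Igf1, Igf2, Igfbp6 and Igfbp3 shared a further feature among disease-free arrays. Each was higher on both arrays with high spike-in levels than on the other disease-free arrays. The differences were 0.26, 0.24, 0.18 and 0.09 on the log2 scale. Each gene was lowest of the disease-free arrays on the nontransgenic one of 110 days. The part of the spike-in levels in these values was not tested. The high spike-in arrays were the nontransgenic one of 75 days and the WT-SOD1 one of 110 days. The feature therefore cannot be told apart from a WT-SOD1 difference that changes with age.

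Igf1r encodes the receptor through which both ligands signal. It read 301 on the nontransgenic, 322 on the WT-SOD1 and 337 on the G93A-SOD1 array at 75 days, and 379, 354 and 336 at 110 days. Both G93A-SOD1 values lay within the disease-free range and their ratio, 110 over 75 days, was 0.995. The G93A-SOD1 array was the highest of its age at 75 days and the lowest at 110 days. The difference from disease-free cord was 0.12 ± 0.14 SE at 75 days (95% interval -0.21 to 0.44) and -0.13 ± 0.14 SE at 110 days (-0.45 to 0.20; limma adjusted p = 0.816 and 0.929). In disease-free cord Igf1r was 1.18-fold higher at 110 than at 75 days (log2 difference 0.24 ± 0.11 SE, 95% interval -0.03 to 0.50), which did not pass (adjusted p = 0.998).

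At 110 days 3 of the 7 genes lay above all 4 disease-free arrays (Igfbp2, Igfbp3 and Igfbp4) and 2 lay below them (Igf2 and Igfbp6), against 16.9% and 27.0% of all tested probe sets. At 75 days 4 lay above them (Igf1, Igfbp2, Igfbp4 and Igfbp6) and 0 below, against 23.9% and 34.7%. None of the 7 passed the limma test at 75 days, as did 0.0% of all probe sets, and 0 had an unadjusted p under 0.05, against 664 of all 6737 probe sets. The count over all probe sets depended on single arrays: 116 passed (26 higher, 90 lower) without either disease-free array of 110 days, and 13 and 36 without the nontransgenic and the WT-SOD1 array of 75 days. With a WT-SOD1 genotype term 54 passed, while in each of these settings 0 of the 7 genes did. The median log2 difference at 75 days was 0.12 over the 7 genes and -0.04 over all probe sets. When arrays were ordered by the level of each gene, neighbours in the order differed by less than 2 moderated standard deviations for all 6 genes other than Igfbp2. For Igfbp2 1 step was larger, the last one to the 110-day G93A-SOD1 array.

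Age and the wild-type transgene left all 7 genes without a call. Between 110 and 75 days in disease-free cord the log2 differences ran from -0.08 to 0.24 (limma adjusted p = 0.998 for all 7, with 0.0148% of probe sets passing). Between WT-SOD1 and nontransgenic cord, with age as a term, they ran from -0.04 to 0.18 (limma adjusted p = 1 for all 7, with 0.104% of probe sets passing, 0.0891% higher). Of the 6 higher probe sets 4 were pituitary genes (Gh, Prl, Pomc and Cga) and 1 was Acta1 of skeletal muscle. On the WT-SOD1 array of 75 days Gh read 8570, Prl 1160 and Acta1 448. The part of these tissues in that share was not tested. The largest WT-SOD1 minus nontransgenic difference of the 7 genes was that of Igf1 (0.18 ± 0.19 SE, 95% interval -0.19 to 0.56). In this fit the moderation gave every probe set the same SE of 0.193. The interval therefore does not reflect the spread of Igf1 itself. The Igf1 difference was uneven between ages: WT-SOD1 minus nontransgenic was -0.08 at 75 days and 0.44 at 110 days. The disease-free arrays with high spike-in levels were the nontransgenic one of 75 days and the WT-SOD1 one of 110 days. Such unevenness therefore cannot be told apart from the spike-in levels or from the other tissue on those arrays.

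**Figure D4:**
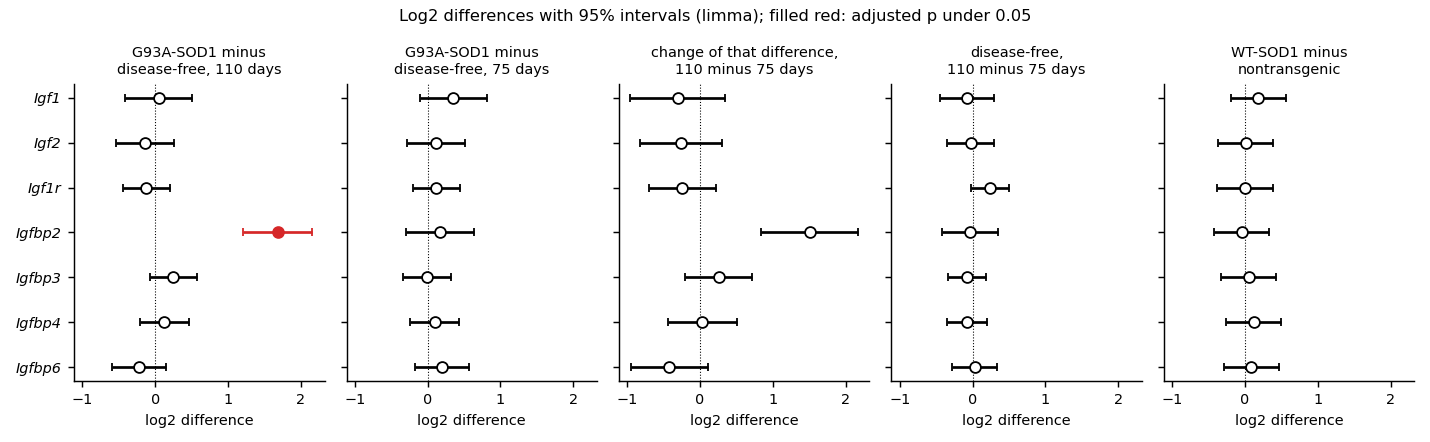
Log2 differences of the 7 genes in the 5 comparisons, with 95% intervals from limma. Filled red marks an adjusted p under 0.05. Igfbp2 at 110 days, at 1.68, is the filled point, and its change between ages, at 1.51, has an interval above 0 but an adjusted p of 0.116.

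Other genes of the pathway were read from a list of 67, of which 50 had a probe set and 31 were tested. At 110 days 1 of 31 rose and 0 fell, beside 1.38% and 0.134% of all tested probe sets. At 75 days 0 passed, beside 0.0% of all. The median log2 difference of the 31 was -0.06 at 110 days and -0.09 at 75 days, beside -0.02 and -0.04 for all probe sets. The gene that rose was Plat, whose product turns plasminogen into plasmin, a protease that can cut binding proteins. Plat was 2.36-fold higher at 110 days (log2 difference 1.24, limma adjusted p = 0.00847) and stood at -0.04 at 75 days. Timp1, an inhibitor of metalloproteinases, had a log2 difference of 0.40 at 110 days (adjusted p = 0.468) and -0.14 at 75 days, and Mmp9 of -0.24 and 0.17. These 3 were the tested genes among 10 for proteases and their inhibitors.

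Among other binding proteins and proteins with an IGFBP domain, 3 of 11 were tested and 0 passed. Kazald1 had a log2 difference of -0.31 at 110 days and -0.12 at 75 days, and Htra1, a secreted serine protease, of -0.14 and 0.22. Igfbp1, Ccn1 and Ccn4 were at the floor on all arrays. Of 8 genes of other receptors and the growth hormone axis 4 were tested and 0 passed. Igf2r, the receptor that takes up IGF-2 for breakdown, stood at -0.36 and the signal transducer gene Stat5b at -0.32 at 110 days. At 75 days Stat5a stood at 0.38 and Stat5b at -0.28.

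Downstream of the receptor 0 of 21 tested genes passed, beside 1.51% of all tested probe sets at 110 days and 0.0% at 75 days. Among 6 genes listed as adaptors the farthest from 0 was Grb10, encoding an inhibitory adaptor. It stood at -0.40 at 110 days and -0.45 at 75 days (limma adjusted p = 0.434 and 0.495). Next came Ptpn1, a phosphatase gene placed in this list, at 0.16 at 110 days, and Grb2 at 0.20 at 75 days. Among 13 PI3K, Akt and mTOR genes Pdpk1, the kinase that activates Akt, stood at -0.42 at 110 days and -0.46 at 75 days, and the forkhead factor gene Foxo3 at -0.41 and -0.65. The intensity of Foxo3 was 347 to 477 on the disease-free arrays, 227 on the G93A-SOD1 array at 75 days and 307 at 110 days, so both lay below that range without passing (limma adjusted p = 0.478 and 0.57). Of the kinase genes Map2k1 and Map2k2 the first stood at -0.12 and -0.40 and the second at 0.13 and 0.19 at 110 and 75 days.

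**Figure D5:**
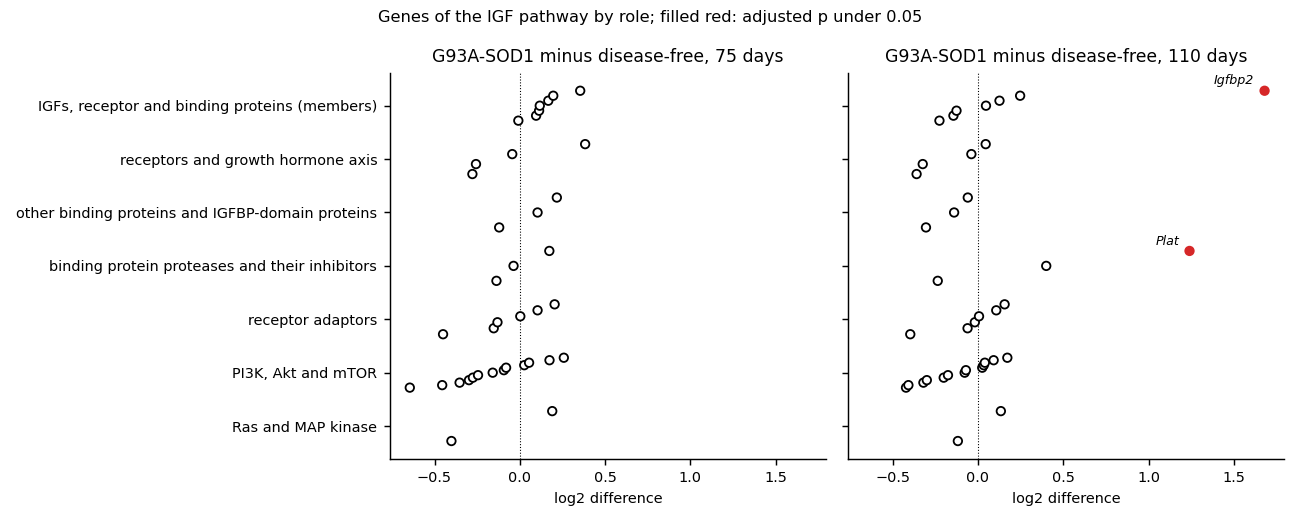
Log2 difference of G93A-SOD1 from disease-free cord at 75 days (left) and 110 days (right), 1 point per tested gene, in rows by role with the 7 genes on top. Filled red marks an adjusted p under 0.05: Igfbp2 at 1.68 and Plat at 1.24, both at 110 days.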

How the data were processed

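Spinal cord RNA was measured on 6 arrays. The deposited values are linear intensities, 1 per probe set; the summary and scaling that the authors used are not given in the sources used here. Per the labels' protocols, poly(A) RNA of 4 cords per array was labelled with biotin and hybridised once. The 66 control probe sets were left out of the tests. Values under the 25th percentile (31) were set to that floor before taking log2. Probe sets above the median (79.7) on at least 1 array were tested with limma 3.58.1 in R 4.3.3 (lmFit, eBayes, Benjamini-Hochberg adjustment at 0.05 over 6737 probe sets). The fit had 4 means (disease-free and G93A-SOD1 at each age), with 2 residual degrees of freedom. For WT-SOD1 minus nontransgenic only disease-free arrays entered, with terms for genotype and age (residual degrees of freedom 1). There the prior degrees of freedom were infinite, so all probe sets shared 1 SE. Whether samples of an age shared animals or batches is not given. In the main fit a p-value sets a difference against a moderated standard error. That error combines the spread between the nontransgenic and the WT-SOD1 pool of an age with a prior from all probe sets. The prior had 5.13 degrees of freedom, and no spread between G93A-SOD1 pools enters. The spread between the disease-free pools holds genotype, pool, other tissue and technical differences together, and no group had a second pool to part them. SE is the moderated standard error. Fits were tested on simulated data.

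Symbols came from the platform annotation, checked against RefSeq's GRCm38.p6 gene table. Named genes were the 7 genes and their other probe sets, the pathway and marker genes that passed or lay farthest from 0 per list, and the 3 genes most like Igfbp2. Gh, of the pituitary list, and Cx3cr1 were named after their values were seen. Genes, lists, rule and alternatives were chosen with earlier results of these data known. Alternatives changed the floor, the filter, the scaling and the model terms, or left out 1 disease-free array.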

Additional observations from a re-analysis of the deposited data

Results flagged for a closer look

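The probe set that lists both Tmem119 and Igfbp5 differed between ages in its G93A-SOD1 difference. It read 375, 406 and 209 at 75 days and 381, 330 and 582 at 110 days on the nontransgenic, WT-SOD1 and G93A-SOD1 arrays, so the G93A-SOD1 arrays were the lowest and the highest of the 6. Its log2 difference from disease-free cord was -0.90 at 75 days and 0.72 at 110 days, neither of which passed (limma adjusted p = 0.398 and 0.0901). Over 14 alternatives the 75-day difference passed in 3 (adjusted p from 0.0302 to 0.588) and the 110-day one in 4 (from 0.0162 to 0.457). The change between them was 1.61 ± 0.21 SE (adjusted p = 0.0408). The change passed in 10 of 13 alternatives and was not called with arrays scaled to 1 median (adjusted p = 0.125), with a floor at the 40th percentile (0.103) or with no filter (0.293). Which of the genes this signal belongs to cannot be told apart here.

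Igfbp6 lay above all 4 disease-free arrays at 75 days and below them at 110 days in G93A-SOD1 cord, a change of -0.42 on the log2 scale that did not pass the test of the difference (limma adjusted p = 0.917).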

How the results depend on the processing

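The number of arrays limits these results, and probe sets near the floor of 31 cannot show a decrease. The rise of Igfbp2 at 110 days passed in 13 of 14 alternatives, with a log2 difference of 1.49 to 1.86 and an adjusted p from 2.3e-08 to 0.384; with no filter and the floor kept, 0 of the 7 genes passed, against 1 otherwise. In that setting the prior standard deviation was 0.00551, against 0.124. The lowest adjusted p came with the WT-SOD1 genotype term, where every probe set had the same standard deviation of 0.193. Testing every probe set with no floor was chosen after seeing the data. For the change of the G93A-SOD1 difference between ages the count of the 7 genes that passed was 0, but 1 with a term for high spike-in levels, 1 with a WT-SOD1 genotype term and 1 without any 1 of the disease-free arrays; that gene was Igfbp2 (1.32 to 1.69), and the cause was not tested. The counts of the 7 genes for 75 days, for age and for WT-SOD1 stayed at 0 in every alternative that was run. Leaving out an array leaves no residual degrees of freedom for WT-SOD1 against nontransgenic, so that was not tested. Over all probe sets the 102 calls at 110 days became 66 with a floor at the 40th percentile, 42 with no filter, 266 with the spike-in term (158 higher, 108 lower), and between 148 and 591 without 1 disease-free array; without the WT-SOD1 array of 110 days, which gave 591, 199 were higher and 392 lower, against 93 and 9. The 28 calls for the change ranged from 2 with arrays scaled to 1 median to 135 without the nontransgenic array of 110 days, the 1 call for age from 0 to 17, and the 7 for WT-SOD1 from 0 to 9. The causes were not tested. Of 460 values of uncalled differences of the 7 genes that stayed uncalled or had no test under an alternative, 33 shifted by more than 1 SE and 44 changed sign. Shifts over 1 SE included the 110-day difference of every second or further probe set not at the floor on all arrays. They also included WT-SOD1 minus nontransgenic for Igf1, Igf2 and Igfbp2, which differed in sign between ages. That sign difference cannot be told apart from the spike-in levels. No paired analysis was possible because the labels give no replicate numbers and each group has 1 array.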

Other observations

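Markers of other cell types were read at 110 days as a check on the cord. Of all tested probe sets 1.38% were called higher and 0.134% lower in this comparison. Of 6 tested neuron genes 1 fell, Nefm, the medium neurofilament gene (log2 difference -0.82, limma adjusted p = 0.0301), and Syt1 stood at -1.26 (adjusted p = 0.171). Of 3 tested motor neuron genes 0 passed, with Nefh at -0.71 (adjusted p = 0.112) and Slc18a3 at -0.18, and Isl1 at the floor on all arrays. None of 5 oligodendrocyte genes passed (Mog -0.24, Mbp -0.23), none of 5 endothelial and mural genes (Tagln 0.58, Cldn5 -0.29), none of 3 choroid plexus and ependymal genes (Ttr -0.34, Foxj1 0.06), none of 2 skeletal muscle genes (Acta1 1.44, Myl1 0.42) and none of 7 Hox genes (Hoxa5 -0.33, Hoxa7 0.28). None of 5 cerebellar genes passed (Gabra6 -2.63, Car8 -2.15), nor any of 5 pituitary genes (Cga 0.30, Pomc -0.23). The 3 Schwann cell genes had no probe set with a single symbol.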
